A study of Homo sapiens with 3 samples.

Results

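Dense domains of HA-PSF-TFE3 binding were examined. These are stretches of the genome in which many binding summits follow each other at short distance. They were chosen by the positions of the summits in the replicate 8 list. Summits of one chromosome were joined when neighbours lay at most 10 kb apart, and groups of 10 or more were kept, from the first to the last summit. This gave 111 domains of 26166 groups. They held 1352 of the 44983 summits of replicate 8 (3.01%, 95% Wilson interval 2.85 to 3.17%). They also held 781 of the 28084 summits of replicate 9 (2.78%, 95% Wilson interval 2.60 to 2.98%), so that the members numbered 2133 in all. The comparison was with the 16716 groups of replicate 8 that held 1 summit. Because replicate 8 positions defined the domains, replicate 8 counts, spacing and scores are descriptions. The domains were tested only for recurrence in replicate 9, whose positions the definition did not use. The summits tested were those of replicate 8, and summits called in replicate 8 alone also helped a domain reach 10. This test is therefore not independent of the rule. An alternative with the lists exchanged tested groups built from replicate 9 for recurrence in replicate 8.

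Binding was measured by chromatin immunoprecipitation and sequencing (ChIP-seq) in HK-2 cells, an immortalised line of human proximal tubule epithelium. The cells carried a doxycycline-inducible HA-PSF-TFE3 construct and were exposed to doxycycline at 0.2 µg/ml for 24 h, the cells of the input DNA library included. The 2 ChIP libraries, replicates 8 and 9, came from separate clones, and 1 library of input DNA was the background for peak calling. The labels and title name this fusion, whereas the design text of the series names PRCC-TFE3. No library without doxycycline or without the tag entered, so that binding of the induced protein has no matched uninduced level here. Each list gives 1 summit per peak, the base of highest enrichment, with a score that is −log10 of the peak's q-value. Sequencing depth is given in the study's text but not in the lists, and was not used here. All intervals cover counting error only.

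TFE3 is a basic helix-loop-helix leucine zipper factor of the MiT/TFE family, which binds E-box sequences and drives genes of lysosomes and autophagy. In resting cells with active mTORC1 it is held in the cytoplasm. Its fusion to SFPQ (PSF), an abundant nuclear RNA- and DNA-binding protein, occurs in translocation renal cell carcinoma and in PEComa, and the fusion protein is nuclear. Clusters of neighbouring binding sites for one factor are a known feature of gene regulation, often described for enhancers around genes of cell identity. No chromatin mark was measured in this series, and the domains are therefore described by binding summits alone. Their positions are on hg19, counted from 1. Because gene annotation and sequence of hg19 were not used here, the domains are named by position and not by gene.

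Group sizes fell steeply and without a break at the chosen minimum. Of the replicate 8 groups, 16716 held 1 summit and 9339 held 2 to 9 summits. Just outside the minimum were 64 groups of 9 summits, with a median length of 24359 bp, a median strongest score of 33.4 and a mean of 5.09 replicate 9 summits. Just inside were 39 groups of 10, with a median length of 28777 bp, a median strongest score of 32.2 and a mean of 5.95 replicate 9 summits. The 2 sizes adjoin on every measure, so the minimum marks the upper end of a continuous range and not a separate class. In replicate 9, joined the same way, 24 groups reached 10 summits, and the fullest held 16.

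**Figure D1:**
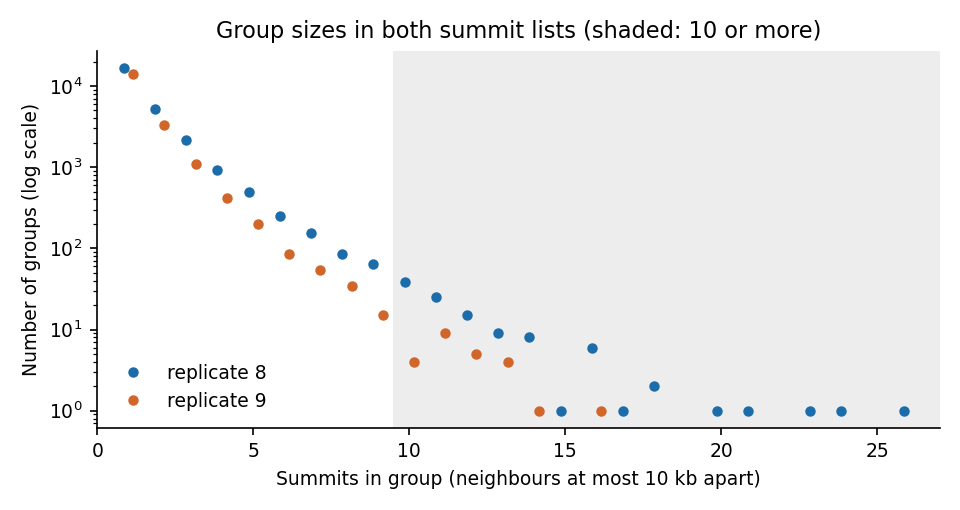
Number of groups (log scale) against the number of summits in a group, for replicate 8 (blue) and replicate 9 (orange), with points of the same size shifted slightly sideways; the shaded range holds groups of 10 or more. Numbers fall from 16716 and 13940 single summits to 1 group each at the fullest sizes, 26 summits in replicate 8 and 16 in replicate 9.

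The domains together covered 3.73 Mb, or 0.126% of the 2968 Mb between the first and last summits of the chromosomes. A domain was 14681 to 82758 bp long, with a median of 31776 bp, and held 10 to 26 summits of replicate 8, with a median of 11. Neighbouring replicate 8 summits inside domains were a median of 1906 bp apart, with quartiles of 1041 and 4477 bp. The closest neighbours were 185 bp apart. A domain was thus typically a row of separately called peaks at moderate spacing. Peak widths and the signal between summits were not used, so that broad binding called in parts cannot be told apart from separate sites.

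The domain with most replicate 8 summits lay on chromosome 15 from 67360056 to 67442813 and was also the longest. It held 26 summits in replicate 8 and 17 in replicate 9, the highest count in both libraries. Its strongest summit reached 29.8 in replicate 8, at 67373330, and 31.5 in replicate 9, at 67402062. The replicate 8 scores ran from 2.68 to 29.8 with a median of 8.62, and those of replicate 9 from 5.65 to 31.5 with a median of 10.5. Neither library thus had a summit of outstanding score here, and 13 of the 26 replicate 8 summits had a replicate 9 summit within 200 bp.

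The domain that ranked next, on chromosome 19 from 18476108 to 18529975, held 24 summits in replicate 8 and 13 in replicate 9. Its libraries peaked at the same place. The strongest replicate 8 summit, at 18518961, scored 34.8, and the strongest replicate 9 summit, 7 bp away, scored 73.9. Here the median replicate 8 score was only 5.09, so that a few strong summits stood among many weak ones. Further domains lay on either side of it on chromosome 19, one ending 60.6 kb before it, with 13 and 4 summits in replicates 8 and 9, and one starting 49.4 kb after it, with 10 and 7.

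On chromosome 9 from 114782845 to 114837014, replicate 8 had 23 summits and replicate 9 had 9. The strongest summits, with scores of 36.6 and 69.8, lay 343 bp apart, beyond the 200 bp used to match summits. The domain on chromosome 17 from 76339928 to 76408750 held 21 and 14 summits. Its strongest replicate 8 summit, with a score of 43.6, was its first base. The replicate 9 partner of that summit, 18 bp away, fell just outside, and the strongest replicate 9 summit inside lay 22805 bp downstream, at 76362733, with a score of 79.9. Replicate 8 also had a summit 98 bp from this one, at 76362635, with a score of 34.2, its next strongest in the domain. Both libraries therefore marked that site.

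The next 6 domains by replicate 8 count held 16 to 20 replicate 8 summits and 8 to 13 replicate 9 summits. In all, 6 domains held 16 replicate 8 summits, and the 2 with the highest summed scores, on chromosomes 10 and 20, were taken. On chromosome 1, the domain from 16465615 to 16521848 held 20 and 11 summits. Further along that chromosome, the domain from 223867428 to 223929934 held 18 and 8. It was the only one of the 10 whose strongest score was lower in replicate 9, at 25.7 against 44.4 in replicate 8. Chromosome 10 had domains from 95197530 to 95243080, with 18 and 8 summits, and from 74052464 to 74096522, with 16 and 9. In both, the strongest summits of the libraries coincided, 42 bp and 123 bp apart. The domain on chromosome 22 from 36747030 to 36793594 held 17 and 10 summits, with the strongest 60 bp apart. The domain on chromosome 20 from 61810832 to 61882598 held 16 and 13, with the strongest 21 bp apart and scores of 42.8 and 105. The chromosome 1 domain from 9329169 to 9381829, with 16 and 13 summits, was one of 4 domains with 13 replicate 9 summits, together with those on chromosomes 19 and 20 described here and one on chromosome 12. Only the chromosome 15 and 17 domains held more.

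**Figure D2:**
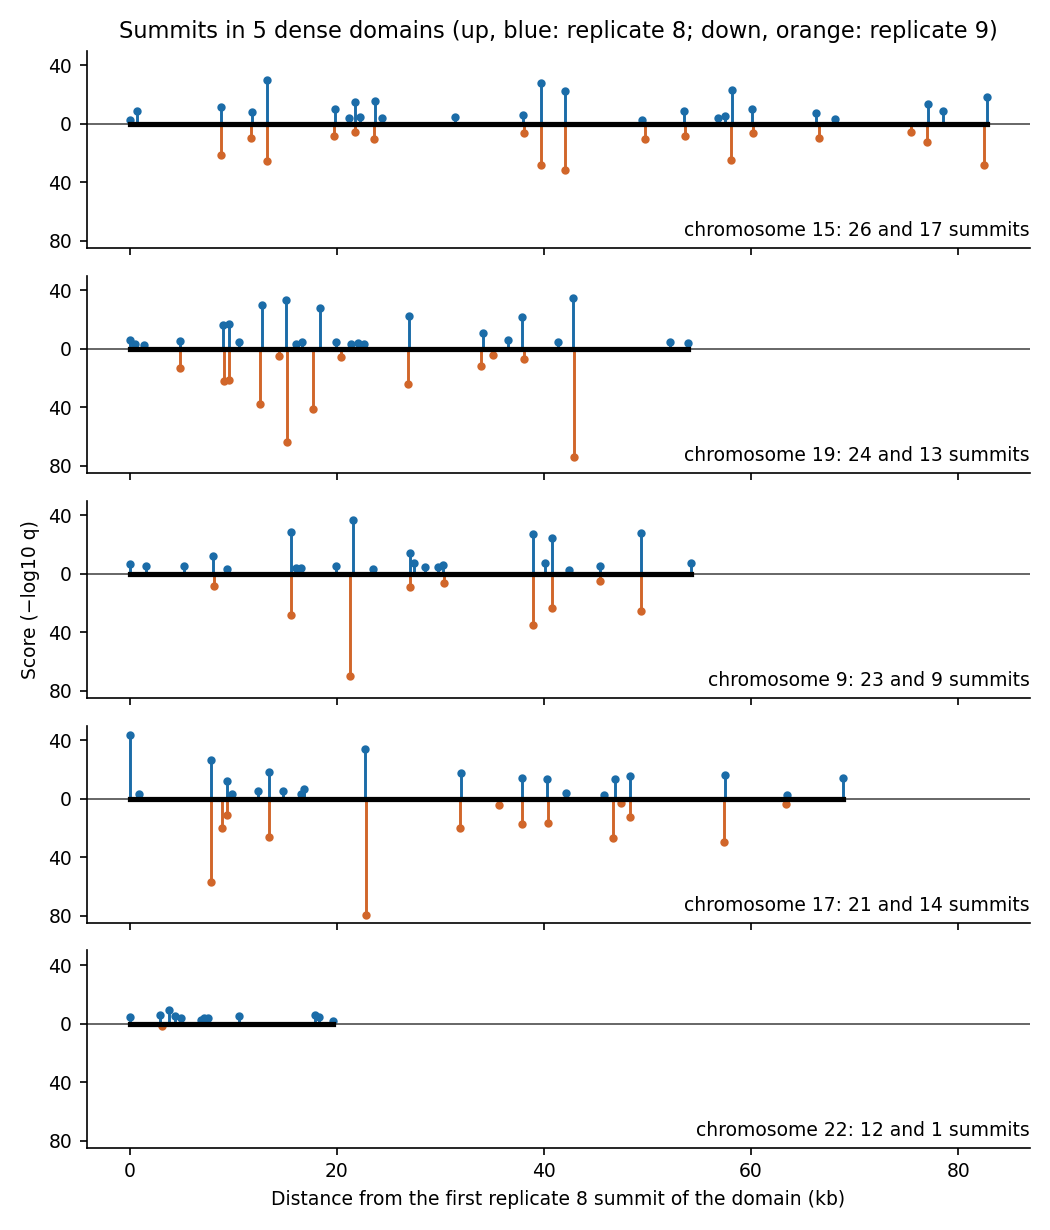
Summit scores (−log10 q) against distance in kb from the first replicate 8 summit, for the 4 domains with most replicate 8 summits and the domain with the lowest ratio of replicate 9 to replicate 8 summits; replicate 8 points up (blue), replicate 9 down (orange), and the thick line spans the domain. Strong summits of both libraries often line up in the upper 4 panels, and the chromosome 22 domain holds 12 weak replicate 8 summits and 1 replicate 9 summit.

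Replicate 9 was dense in the same stretches. Inside the domains it had 2.10 summits per 10 kb (exact Poisson 95% interval 1.95 to 2.25), which was 22.2 times its density of 0.0946 per 10 kb over the whole span of its list. Replicate 8, which chose the domains, had 3.63 and 0.152 per 10 kb. Since 76.6% of all replicate 9 summits had a replicate 8 summit within 200 bp, a high replicate 9 density inside was largely fixed in advance. It is given as a description. Beyond 200 bp and up to 10 kb outside the domain ends, where by definition replicate 8 has no summit, its density was 0.115 per 10 kb (0.0744 to 0.170), and the density inside was 18.2 times as high. The rule keeps this flank free of replicate 8 summits, and most replicate 9 summits lie near one, so that the low density there is no independent mark of an edge. The same flank of single summits had 0.0564 per 10 kb (0.0538 to 0.0590). Some runs of replicate 9 summits crossed a domain end. On chromosome 3, a replicate 9 group of 10 summits from 5020055 to 5068443 ran past a domain that ended at 5044288. At 10 to 50 kb from the ends, replicate 9 density was 0.411 per 10 kb (0.370 to 0.455), compared with 0.167 (0.165 to 0.169) at the same distance from single summits. At 50 to 200 kb it was 0.293 (0.275 to 0.312) and 0.149 (0.148 to 0.150). The domains therefore lay in wider neighbourhoods that were denser in replicate 9 summits than those of single summits, with ratios of 2.46 and 1.96 at these distances. The intervals did not overlap, but surroundings of neighbouring summits share bases, so that no test was made.

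Every domain held at least 1 replicate 9 summit, and 95 of 111 (85.6%, 95% Wilson interval 77.9 to 90.9%) held 5 or more. As most replicate 9 summits lie near a replicate 8 summit, these counts too are a description. The count per domain ranged from 1 to 17, with a median of 7 and a mean of 7.04 ± 2.98 (SD over 111 domains), compared with 12.2 ± 3.05 for replicate 8. In all, the domains had 0.578 replicate 9 summits for each replicate 8 summit, compared with 0.624 over the full lists. The replicate 8 count in this ratio is the count that chose the domains. In 2 domains replicate 9 had more summits than replicate 8. A run of 5 or more replicate 9 summits, joined at up to 10 kb, lay within 84 domains, and a run of 10 or more within 13. Counts per domain in the libraries had a Spearman's rho of 0.415 over the 111 domains, and counts per 10 kb one of 0.478. Domain length enters both counts, with a rho of 0.420 with replicate 8 counts and 0.373 with those of replicate 9.

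**Figure D3:**
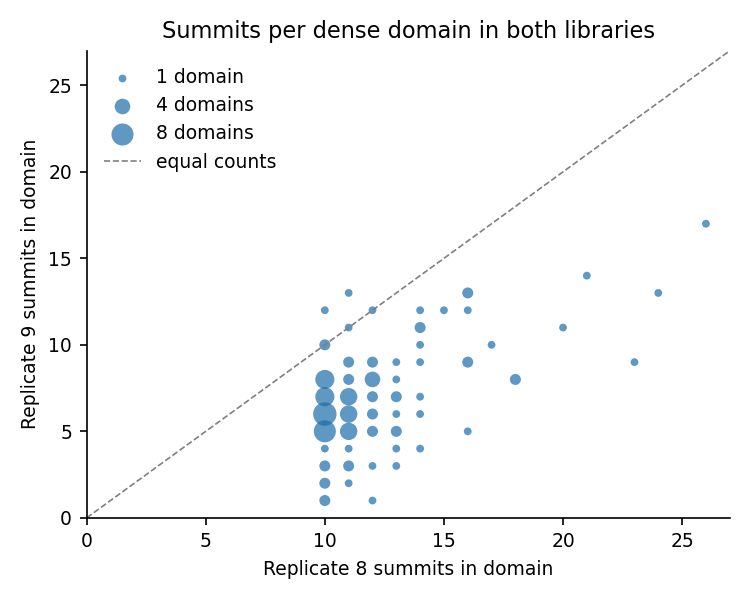
Replicate 9 summits against replicate 8 summits in each of the 111 domains; the area of a point gives the number of domains there, and the dashed line marks equal counts. Nearly all domains lie below the line, with a range of 1 to 17 replicate 9 summits, and 2 lie above it.

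The libraries differed most at the extremes of that ratio. On chromosome 22 from 41124946 to 41144597, replicate 8 had 12 summits, none above a score of 9.18, and replicate 9 had 1 summit with a score of 1.92, close to the lowest score in its list. The nearest of the 12 stood 219 bp from it. The 1 replicate 8 summit that recurred was the first, with a score of 4.19, whose partner lay 17 bp away and just outside the domain. On chromosome 19 from 12885985 to 12904861 and on chromosome 2 from 191724506 to 191752341, replicate 8 had 10 summits and replicate 9 had 1. In contrast to chromosome 22, that replicate 9 summit lay at the strongest replicate 8 summit in both, 34 bp and 14 bp away, with scores of 20.04 and 19.5. The strongest replicate 8 scores were 33.1 and 28.0, and these sites were thus marked in both libraries.

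At the other extreme, replicate 9 had 12 summits and replicate 8 had 10 on chromosome 8 from 128885326 to 128919930. The strongest replicate 9 summit there, at 128911819, scored 78.5, and the nearest replicate 8 summit, 456 bp away, scored 30.1. On chromosome 12 from 113651866 to 113684843 replicate 9 had 13 summits and replicate 8 had 11, of which 81.8% recurred, the highest share of any domain. In 4 further domains the counts were equal. Those on chromosome 16 from 66907054 to 66941669 and on chromosome 10 from 80887010 to 80922937 held 10 summits in each library, that on chromosome 19 from 38482398 to 38508491 held 11, and that on chromosome 10 from 73608944 to 73650282 held 12.

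Recurrence was measured as the share of replicate 8 summits with a replicate 9 summit within 200 bp. It was 44.4% in the domains (600 of 1352 summits, 95% Wilson interval 41.8 to 47.0%), compared with 47.9% of all replicate 8 summits and 51.5% of single summits (8610 of 16716, 50.7 to 52.3%). In groups of 2 to 9 summits it was 45.8% (12326 of 26915, 45.2 to 46.4%). That share lay within the interval of the domains, so that a share below that of single summits was not particular to domains. Since summits of a domain are neighbours, the test took 1 summit per domain, the middle one in genome order. Of these, 50 of 111 recurred (45.05%, 95% Wilson interval 36.1 to 54.3%), a difference from single summits of -6.46 percentage points (95% interval -15.4 to 2.84). No difference was detected (two-sided Fisher's exact test, p = 0.18), and the interval does not show that the shares are alike. With the lists exchanged, 8 of 24 middle summits of the replicate 9 groups recurred in replicate 8, compared with 81.3% of its single summits (Fisher's exact test, p = 3.6e-07). Of all summits in these replicate 9 groups 65.1% recurred, so that the size of this difference depends on which summits were taken.

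Recurrence followed score inside the domains. Summits of a domain were ranked by replicate 8 score. The strongest had a median score of 33.1, and 94 of 111 recurred (84.7%, 95% Wilson interval 76.8 to 90.2%). The share was 78.4% for the second, 58.6% for the fifth and 16.2% for the tenth, whose median score was 3.86. Beyond the tenth it was 13.6% (33 of 242, 9.88 to 18.5%). Neighbouring ranks had overlapping intervals, whereas those of the strongest and the fifth did not. The median domain had 5 recurring replicate 8 summits, with a range of 0 to 13, and 0 of the 111 recurred in full (95% Wilson upper limit 3.35%). The 1 domain without any, on chromosome 16 from 29604794 to 29626130, held 13 and 5 summits, and its strongest summits lay 320 bp apart. Recurring summits had a median score of 15.8 and the others one of 5.01.

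**Figure D4:**
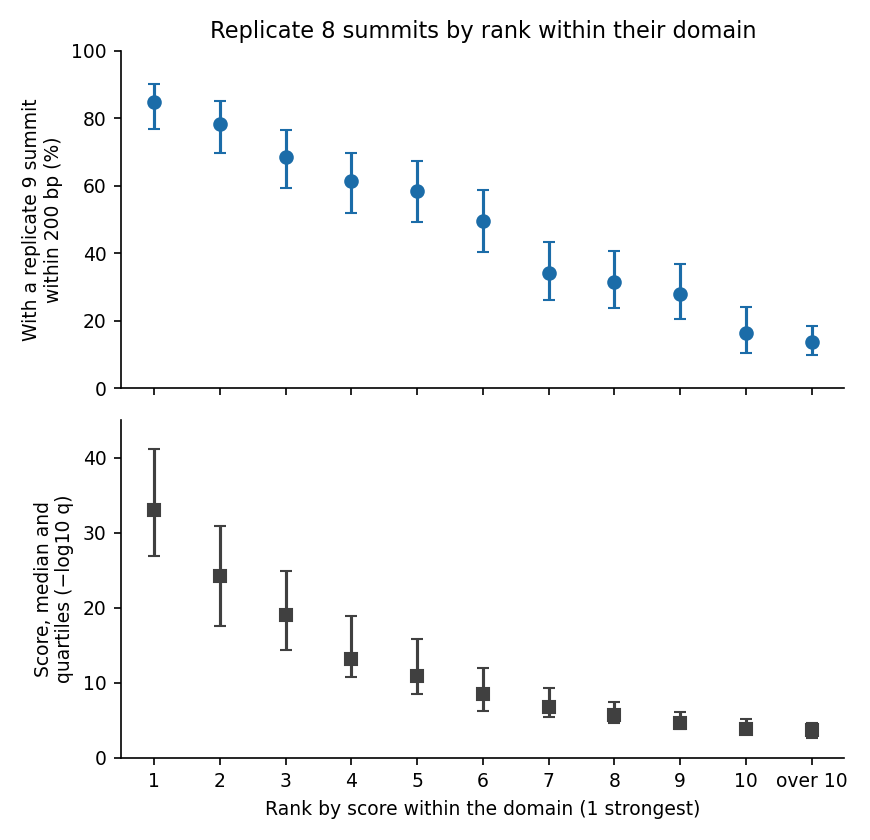
Above, the share (%) of replicate 8 summits with a replicate 9 summit within 200 bp against their rank by score within the domain, with 95% Wilson intervals; below, the median score (−log10 q) at each rank, with quartiles. The share falls from 84.7% for the strongest summit to 13.6% beyond the tenth, as the median score falls from 33.1 to 3.67.

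At similar score, domain summits recurred within 200 bp less often than single summits, or at an overlapping share. Replicate 8 summits were split into 5 score classes of equal size. In the highest class, with scores of 18.3 and above, 249 of 300 domain summits recurred within 200 bp (83.0%, 95% Wilson interval 78.3 to 86.8%), compared with 91.2% of single summits (90.2 to 92.1%). When 500 bp was allowed, the shares were 96.7% (94.0 to 98.2%) and 97.2% (96.6 to 97.7%). Nearly all of the strong summits thus had a replicate 9 summit within 500 bp, in domains and singly. In the lowest class 12.3% of domain summits (9.16 to 16.4%) and 15.6% of single summits (14.3 to 17.0%) recurred within 200 bp. In the next class up the shares were 19.9% and 27.2%, in the middle class 37.1% and 46.1%, and in the class below the highest 72.1% and 72.6%. Within 500 bp the shares of that last class were 88.5% (83.9 to 91.9%) and 79.9% (78.5 to 81.2%), with domains above single summits. Within 200 bp, intervals of domain and single summits overlapped only in the lowest class and in that below the highest. These intervals count neighbouring summits of one domain as if they were independent. The differences within score classes were not tested and are a description. Because a domain packs summits closely, wider distances also match a summit to a neighbour's partner, and within 1000 bp the share in the lowest class rose to 42.1% in domains and 19.2% for single summits. Matches to a neighbour's partner and longer distances between partners cannot be told apart from these shares. Paired, mutually nearest summits within 200 bp were a median of 55 bp apart in domains and 51 bp at single summits.

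**Figure D5:**
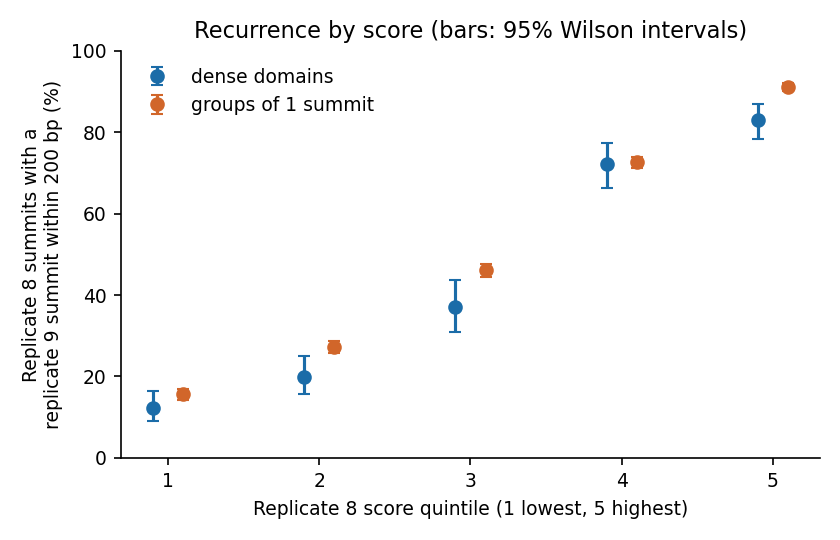
Share (%) of replicate 8 summits with a replicate 9 summit within 200 bp in 5 score classes, for domain summits (blue) and groups of 1 summit (orange); bars are 95% Wilson intervals. Shares rise from 12.3% and 15.6% to 83.0% and 91.2%, with domain summits at or below single summits in every class.

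The shares were also compared from the side of replicate 9. Of its 781 domain summits, 544 had a replicate 8 summit within 200 bp (69.7%, 95% Wilson interval 66.3 to 72.8%), compared with 76.6% of its whole list. Within 500 bp the shares were 87.6% and 87.7%. The 237 domain summits without a replicate 8 summit within 200 bp were spread over 92 of the 111 domains. They were not all weak, with a median score of 7.27 and an upper quartile of 17.8. Among replicate 9 domain summits with a score of at least 30, 37 of 174 had no replicate 8 summit within 200 bp, and 30 of these 37 had one within 500 bp. Outside the domains, 89.7% of replicate 9 summits with such scores recurred, compared with 78.7% inside (72.1 to 84.2%).

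Scores of at least 30 were more frequent in domains than among single summits in both lists. Typical replicate 8 scores were not higher in domains, and its highest-ranked summits lay there about as often as the full list. The median replicate 8 score was 7.99 in domains and 8.43 for single summits, and 41.7% and 42.6% scored at least 10. For a score of at least 30 the shares were 8.43% (95% Wilson interval 7.07 to 10.03%) and 6.42% (6.06 to 6.80%). In replicate 9, the median score was 12.7 in domains, 10.9 for summits within 200 bp of single replicate 8 summits and 10.5 over the whole list. Scores of at least 30 were reached by 22.3% of the replicate 9 domain summits (19.5 to 25.3%), by 14.9% of those at single summits (14.1 to 15.6%) and by 16.0% of the list. The top of the replicate 9 list showed the same. Of its 101 highest-ranked summits, ties included, 13 (12.9%) lay inside domains, and of its 1000 highest 5.50%. The share of its full list was 2.78%. Of the replicate 8 list, 3 of the 100 highest and 2.90% of the 1000 highest lay there, close to the 3.01% of the full list. These scores are not normalised between libraries and were not tested.

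Most domains had a few strong summits among weaker ones, though not all. The strongest replicate 8 summit scored a median of 3.81 times the domain's median score, and the 3 strongest made up a median of 55.5% of the summed score. The lowest ratio of strongest to median score was 1.48, in a chromosome 10 domain that started at 129706150 and peaked at 14.7. Strongest scores per domain ranged from 9.18 to 78.1 in replicate 8 and from 1.92 to 126 in replicate 9. They were higher in replicate 9 in 85 of 111 domains. Over the full lists the upper quartile of scores was 21.6 in replicate 9 and 15.8 in replicate 8. Among all paired summits, mutually nearest and within 200 bp, replicate 9 scored higher in 46.5%. The part of such differences between the lists in this count was not tested. Over the 111 domains, Spearman's rho of the strongest scores was 0.634. The highest replicate 8 score in a domain, 78.1, was on chromosome 2 at 9526739, with a replicate 9 summit 27 bp away that scored 108. The highest replicate 9 score in a domain, 126, was on chromosome 10 at 73628098, the third highest of its list. A replicate 8 summit with a score of 61.6 stood 68 bp from it, at 73628166.

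The strongest summit was often at the same site in both libraries. In 52 of 111 domains (46.8%, 95% Wilson interval 37.8 to 56.1%) the strongest summits of the libraries lay within 200 bp of each other, and in 61 within 500 bp. In 42 further domains the strongest replicate 8 summit recurred within 200 bp, but the strongest replicate 9 summit inside the domain lay elsewhere. Some of these partners stood just outside a domain end, and with ends extended by 200 bp the strongest summits coincided in 55 domains. In 40 domains the strongest summits lay over 5000 bp apart. Scores of paired summits, mutually nearest and within 200 bp, had a Spearman's rho of 0.796 over 599 pairs in domains and 0.688 over 8610 pairs at single summits, as a description across sites that share 2 libraries. Replicate 9 had the higher score in 55.6% of the domain pairs and in 44.0% of the single pairs. Over all 21518 pairs of the lists the rho was 0.728 and this share 46.5%. The strongest summit had no fixed place, being the first or last of its domain in 22 of 111 domains and between 40 and 60% of the length in 22.

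Domains lay on 21 of the 24 chromosomes, most on chromosomes 19, 10 and 1, with 12, 11 and 10 domains. The share of a chromosome's replicate 8 summits that lay in domains was highest on chromosomes 19, 22 and 14, at 8.90%, 8.62% and 6.98%. Replicate 9 had its highest shares on the same chromosomes, at 8.004%, 7.02% and 6.62%. Most replicate 9 summits lie near a replicate 8 summit, so these shares are a description and not an independent ranking. On chromosome 4 the shares were 1.06% and 0.962%. Chromosome X held none of its 985 replicate 8 summits in a domain. Chromosome 13 held none of its 1112. Summits enter a domain only in sets of 10 or more, so that no limit was put on these shares. The density of all replicate 8 summits was 33.4 and 28.4 per Mb on chromosomes 22 and 19, 11.7 on chromosome 13 and 6.38 on chromosome X. It did not follow the shares throughout. Chromosome 14 had 17.3 per Mb, and chromosome 17 had 28.3 per Mb with a share of 4.27%. The part of density in the shares was not tested. Chromosome Y, with few summits in either list, held none.

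Some domains were themselves neighbours. Of the 90 pairs of successive domains on one chromosome, 4 were at most 100 kb apart and 16 at most 1000 kb. The closest pair lay on chromosome 7, where the domain from 151381485 to 151413925, with 16 and 12 summits in replicates 8 and 9, ended 11.2 kb before the domain from 151425150 to 151454116, with 10 and 8. The replicate 9 summit with the highest score of the second of these, at 151442489, scored 113 and ranked eighth in its list. A replicate 8 summit lay 23 bp from it. On chromosome 17, the domain from 74367305 to 74394979 was followed after 86.0 kb by that from 74480969 to 74536743. The pairs on chromosomes 7 and 17 and those around the chromosome 19 domain make up the 4 closest.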

How the data were processed

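HA-PSF-TFE3 ChIP-seq libraries (replicates 8 and 9) were compared, with groups taken from the labels. The authors aligned reads, removed duplicates and ran MACS2 in each ChIP library against the input, without pooling. The MACS2 version is not given in the sources used here. The deposited scores are −log10 q-values, with a stated cutoff of 0.05 (1.30 on the score scale). The methods also name a p-value cutoff and hg38. The lists are on hg19 per the labels, and 364 and 262 summits lay beyond hg38 chromosome ends. Deposited columns of any other kind were summit positions.

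Members and gene lists were chosen with earlier results of these data known. The planned promoter, gene and motif analyses, and printed sequences, were not run, since the reference at hand was hg38. The recurrence of middle summits was tested with Fisher's exact test (two-sided), and shares have Wilson intervals. The interval of a difference of shares was built from these (Newcombe). Densities have exact Poisson intervals, and assembly gaps were not removed. Ties at class limits were split in genome order. Named were the 10 domains with most replicate 8 summits, the 5 with most replicate 9 summits, and the 3 with the lowest and highest ratios. Ties in replicate 8 counts went by summed score, and other tied domains are given in the text. Other positions were chosen after their values were seen. Joining and distance functions were tested on simulated lists with planted groups. Computation was in scipy 1.17.1, pandas 2.3.3 and numpy 2.4.6 under Python 3.11.15, and plots were drawn with matplotlib 3.10.9.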

Additional observations from a re-analysis of the deposited data

How the results depend on the processing

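The number of domains followed from the rule: 23 with joining at 5 kb, 381 at 20 kb, 259 with a minimum of 8 summits and 15 with 15. With minimum scores of 5 and 10 it was 23 and 1, and with the lists cut to equal numbers 11. Without one replicate it ranged from 24, built from replicate 9, to 111. Merging summits under 500 bp apart gave 91. Replicate 9 summits per domain were 6.39 and 7.60 with joining at 5 and 20 kb, 5.56 and 10.9 with minimums of 8 and 15 summits, 11 with a minimum score of 10 and 9.45 at equal numbers. The domain ends are replicate 8 summits, and 55 replicate 9 summits lay 1 to 200 bp outside them. Extending the ends by 200 bp, chosen after seeing the data, gave 7.53 per domain, and the strongest summits then coincided in 55 domains in place of 52.

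The share of replicate 8 domain summits that recurred was 39.2% with joining at 5 kb, 61.3% and 90.9% with minimum scores of 5 and 10, 71.4% at equal numbers, 20.9% within 50 bp and 57.3% within 500 bp. With the lists exchanged, 65.1% of all summits in the replicate 9 groups recurred in replicate 8, compared with 33.3% of their middle summits. The difference from single summits, -6.46 points by middle summit, passed the test in the same direction with joining at 20 kb (-7.91, Fisher's exact test, p = 0.0025), with a minimum of 8 summits (-7.11, exact p = 0.024) and with the lists exchanged (-48.0, exact p = 3.6e-07). It changed sign with minimum scores of 5 and 10 (5.40 and 42.3 points, the latter from 1 domain), at equal numbers (14.01), within 500 bp (0.82) and with the first summit (5.25), and none of these passed the test. With the strongest summit it was 33.2, which picking by score fixes in advance and which is no test of the direction. In each setting groups were kept by counts of the list whose summits were tested, so none of these tests is independent of the rule. Apart from the numbers of domains and summits, the cause of these moves was not tested. Depth was not used, so a summit in 1 list alone says only that the other list's threshold was not passed.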

Other observations

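Joining the replicate 9 list by the same rule gave 24 groups of 10 or more summits, which held 281 summits. Of these groups, 21 overlapped a domain defined from replicate 8 and 3 did not. The 3 lay on chromosome 8 from 23185115 to 23213859, with 11 replicate 9 and 6 replicate 8 summits, on chromosome 12 from 52580168 to 52615877, with 12 and 10, and on chromosome 17 from 17723120 to 17760111, with 11 and 9. Their replicate 8 summits fell in groups of up to 6, 7 and 8 summits, all under the minimum of 10. The chromosome 12 group had the strongest replicate 9 summit of the 3, with a score of 90.7.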
